A study of Mus musculus with 5 samples.

Results

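The NR4A orphan nuclear receptors Nr4a1, Nr4a2 and Nr4a3 and the retinoid X receptors Rxra, Rxrb and Rxrg were followed in the mouse hippocampus after kainic acid seizures. The members were found by gene symbol, and the 6 of them were taken from 55385 counted genes. Total RNA was sequenced from 5 hippocampal libraries, 1 of untreated control tissue, 1 taken 1 h after seizure onset, 2 at 4 h and 1 at 8 h. All animals were C57/bl6 males of 3 months. Seizures were provoked by kainic acid, an agonist of a class of glutamate receptors, injected intraperitoneally at 20 mg/kg, and the methods of the study kept only animals that reached strong seizures. The control library came from an untreated animal or animals, not from vehicle-injected ones. As this control served all times, the parts of kainic acid, injection and time of day cannot be told apart. How many mice went into each library is not stated in the labels.

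The control library held 19100374 reads on genes, the 1 h library 17744508, libraries 1 and 2 of the 4 h pair 18250114 and 19109204, and the 8 h library 16612225. Levels are given as CPM, a gene's counts scaled to the gene reads of its library after TMM normalization, and intervals in parentheses are 95% intervals that cover counting error only. Only the 4 h condition had replicates, so the spread between libraries is known from that pair alone, and every comparison with the control rests on the same control library. Because nothing states that the pair came from separate animals, p-values measure the spread between these libraries, which need not be that between animals. The pair also differed in tissue markers, as given below.

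Markers of hippocampal tissue were present in every library. The 6 neuron markers summed to between 3437 and 4122 CPM, and the 6 dentate granule and CA markers to between 435 and 492 CPM, with none at 0 in any library. Within these steady sums single markers went apart at 4 h. The neuron marker Gad1 stood at 256 CPM in the control and 515 and 379 in the 4 h libraries. Gad2 stood at 103, 150 and 155 CPM in the same 3 libraries, and Rbfox3 at 119, 82.0 and 82.4 CPM. The granule cell marker Prox1 stood at 60.0 CPM in the control, 67.2 at 1 h, 172 and 119.7 in the 4 h libraries and 77.1 in the 8 h library. C1ql2, also of granule cells, stood at 29.3, 27.9, 11.05, 11.7 and 58.1 CPM in the same order, and the CA marker Neurod6 at 144, 145, 60.9, 67.1 and 104 CPM. Prox1 was thus highest, and C1ql2 and Neurod6 lowest, in the 4 h libraries.

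Markers of neighbouring tissue and of other cell types set some libraries apart. The 4 choroid plexus markers summed to 3919.5 CPM in the control, 1652 at 1 h, 26.4 and 4174 in libraries 1 and 2 at 4 h, and 3032 at 8 h. Their most abundant gene, Ttr, stood at 3747, 1573, 16.3, 3971 and 2884 CPM in the same order, and no choroid plexus marker was at 0. Library 1 at 4 h was thus nearly without choroid plexus RNA, and the 1 h library held less than the control. The 2 thalamus markers summed to 29.7, 31.7, 212, 83.1 and 25.7 CPM, most of it from Prkcd, and were highest in library 1 at 4 h. Astrocyte markers summed to 922, 1014, 1519.5, 1355 and 1356 CPM, of which Gfap, at 221, 272, 596, 510.2 and 587 CPM, made up most of the difference from the control. All 4 astrocyte markers were higher than the control in the 4 h fit, with Aqp4 at 214 and 177 CPM and Aldh1l1 at 84.9 and 76.9 CPM. At 8 h Aqp4 and Aldh1l1 stood at 129 and 61.3 CPM, against 133 and 58.8 in the control. Oligodendrocyte markers summed to 2978, 3724, 3514, 4529 and 2994 CPM. Summed endothelial markers, at 67.3, 67.5, 107, 63.6 and 80.7 CPM, and blood markers, at 130.03, 108, 226, 144 and 176 CPM, were highest in library 1 at 4 h. Of the endothelial markers only Flt1 was highest there, at 70.2 CPM, while Pecam1 and Cldn5 were highest at 8 h, at 26.2 and 17.6 CPM. The share of all reads that matched no counted feature was 24.7%, 29.0%, 33.1%, 25.3% and 30.9%, again highest in library 1 at 4 h. Whether such reads lay inside genes, for example in introns, is not given. The part of these differences in the values below was not tested. In tissue libraries, a change in the number of cells that express a gene and a change in RNA per cell cannot be told apart.

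NR4A proteins are transcription factors whose ligand pocket is filled by their own side chains, so their activity follows their amount more than a hormone. Their genes are immediate early genes, switched on by calcium and cyclic AMP signals through CREB without new protein synthesis, and in the hippocampus they are known for a role in long-term memory. They bind the NBRE, an octamer in DNA, as monomers, and Nr4a1 and Nr4a2 also pair with a retinoid X receptor, the shared partner of many nuclear receptors that responds to retinoids and fatty acids.

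The promoters of the NR4A genes are shown because these genes showed like patterns and because CREB is a well-known activator of them. RefSeq promoters of build GRCm38, each 300 bases from 250 before to 50 after a start site, were found for all 6 members, with 9 promoters in all. Letters were searched on both strands, for the CRE (TGACGTCA), a short CRE (TGACG, which a full CRE holds on each strand), the NBRE (AAAGGTCA), AP-1 (TGANTCA), the EGR site (GCGTGGGCG) and the CArG box. The promoter of each NR4A gene held 4 short CREs and none of the other letters. Of 32851 promoters, 20.8% held at least 1 short CRE and 0.231% held 4 or more. The cut-off of 4 is the number found in the NR4A promoters themselves, so this share describes them and tests nothing. G and C made up 72.3%, 81.7% and 64.7% of the Nr4a1, Nr4a2 and Nr4a3 promoters, and the 32851 promoters were not matched for this. The share of all promoters with the other letters was 1.79% for the CRE, 1.51% for the NBRE, 7.81% for AP-1, 0.612% for the EGR site and 1.63% for the CArG box. The short CREs farthest from and nearest to the RefSeq start site of each NR4A promoter are shown 5′ to 3′ on the gene's own strand. The short CRE is in capitals, as CGTCA where it lies on the other strand. For Nr4a1 and Nr4a3 this start site lies inside the GENCODE gene given below. Coordinates are those of the 30 bases printed. For Nr4a1 the motifs begin -233 and -40 bases from that start site, within the windows chr15:101266600-101266629 and chr15:101266793-101266822 on the plus strand. For Nr4a2 they begin at -200 and -111, within the windows chr2:57124187-57124216 and chr2:57124098-57124127 on the minus strand. For Nr4a3 they begin at -231 and -147, within the windows chr4:48045061-48045090 and chr4:48045145-48045174 on the plus strand.
Nr4a1 distal: tccgcgctccctgCGTCAatggaaccccgc
Nr4a1 proximal: gcccctctccatgCGTCAcggagcgcttaa
Nr4a2 distal: cccgccaggccggCGTCActggcagggcgc
Nr4a2 proximal: ctgacggggccgcTGACGcgcttggccgcg
Nr4a3 distal: gggaggaggagggTGACGtagcgtcccatg
Nr4a3 proximal: cctgtggcataaaTGACGtgccgagagagc
The RXR genes differed from this in their letters. Rxra and Rxrg each had 2 promoters in the table, 1 of which held an NBRE, and 1 of the 2 Rxrb promoters held a single short CRE. The NBREs, in capitals, lay within the printed windows chr2:27709231-27709260 for Rxra and chr1:167618164-167618193 for Rxrg, both on the plus strand. A match describes the letters and does not show that a factor binds there.
Rxra: tgggtggcaggAAAGGTCAgtcactctctg
Rxrg: gatcggggttgAAAGGTCAgctgaaagctt

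Nr4a1, which encodes Nur77 (ENSMUSG00000023034.7, chr15:101254269-101274795, plus strand), had 673 counts in the control, 10641 at 1 h, 2747 and 655 in the 4 h libraries 1 and 2, and 377 in the 8 h library. As normalized levels these were 33.8, 605, 163, 34.6 and 21.5 CPM. The 1 h library was far above all others, library 1 at 4 h was intermediate, library 2 at 4 h could not be told from the control within counting error, and the 8 h library was the lowest. The pair at 4 h was split, with a mean of 98.9 ± 90.9 CPM (SD, n = 2).

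Nr4a2, which encodes Nurr1, the factor that dopamine neurons of the midbrain need (ENSMUSG00000026826.13, chr2:57106830-57124003, minus strand), had 993 counts in the control, 7453 at 1 h, 4348 and 1152 in the 4 h libraries and 321 in the 8 h library. Its levels were 49.9, 424, 258, 60.9 and 18.3 CPM. The order of the libraries was that of Nr4a1, but library 1 at 4 h lay nearer to the 1 h library and the 8 h library lay further under the control. The mean at 4 h was 159.6 ± 139.5 CPM (SD, n = 2).

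Nr4a3, which encodes Nor1 (ENSMUSG00000028341.9, chr4:48045153-48086447, plus strand), had 928 counts in the control, 5196 at 1 h, 3706 and 1197 in the 4 h libraries and 428 in the 8 h library. Its levels were 46.6, 296, 220.1, 63.3 and 24.4 CPM, with a mean of 142 ± 111 CPM at 4 h (SD, n = 2). Both 4 h libraries lay above the control here, library 2 by little, and the 8 h library was again the lowest. No annotated gene overlapped any of the 6 members in GENCODE M21.

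**Figure D1:**
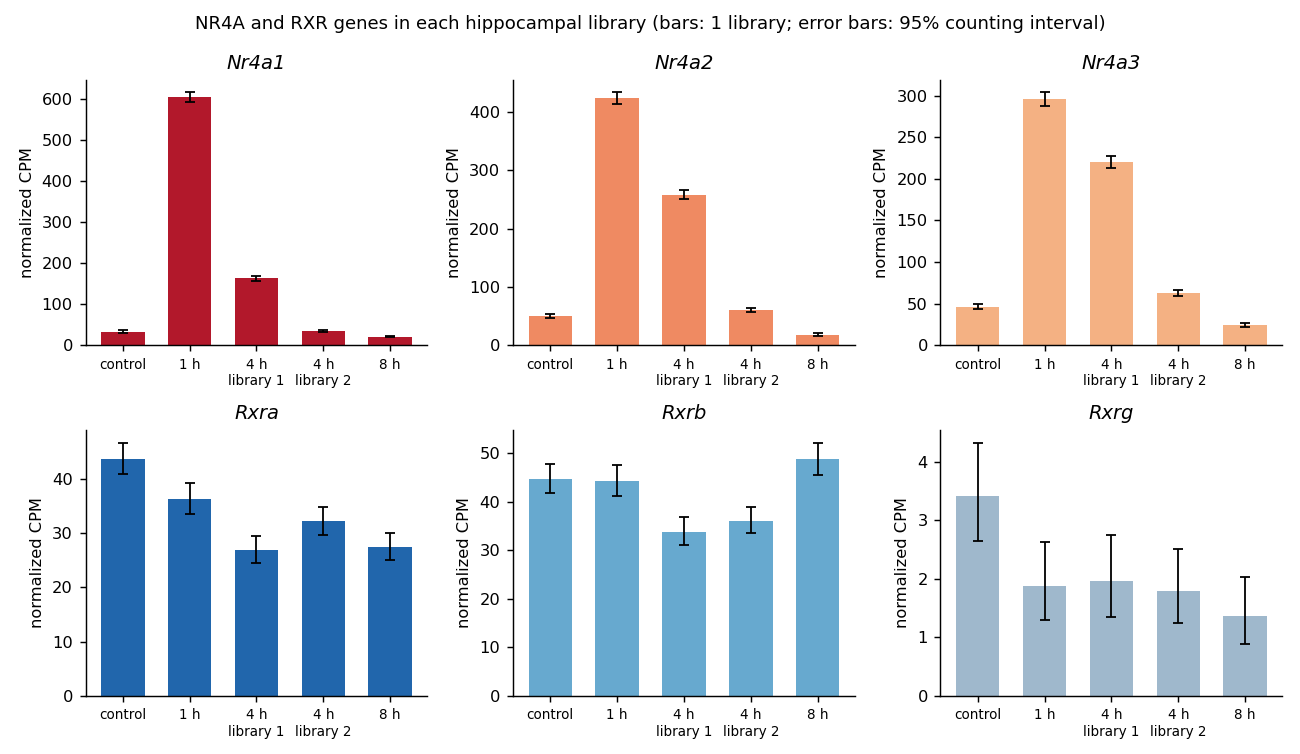
Normalized CPM (vertical axes, each from 0) of the 6 genes in the control, 1 h, both 4 h and 8 h libraries, 1 bar a library, with 95% counting intervals. The NR4A genes were highest at 1 h, at 605, 424 and 296 CPM, while Rxra, Rxrb and Rxrg stood at or below their control level in the 1 h and 4 h libraries.

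The 1 h comparison asks how far the receptors stood from the untreated level early after seizure onset. Nr4a1 was 17.9-fold higher than in the control (16.6 to 19.4), Nr4a2 8.50-fold (7.95 to 9.09) and Nr4a3 6.34-fold (5.91 to 6.81). The intervals of the 3 ratios did not overlap, so that Nr4a1 stood farthest from the control and Nr4a3 nearest. The same libraries held 1652 and 3919.5 CPM of choroid plexus markers, whose part was not tested. Of the 19768 genes tested, only 22 had a larger fold change than Nr4a1, against 61 for Nr4a2 and 92 for Nr4a3. All 3 were at least 2-fold higher, as were 4.14% of all genes tested, and none of the 6 members was among the 2.53% at least 2-fold lower.

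The fitted log2 fold changes at 1 h were 4.16 (SE 1.06) for Nr4a1, 3.08 (SE 0.96) for Nr4a2 and 2.66 (SE 0.82) for Nr4a3. In edgeR's quasi-likelihood test (Benjamini-Hochberg adjusted) the adjusted p was 1 for each, although the unadjusted p values were 0.0099, 0.0211 and 0.021. By this test 0 of the 6 members and 0% of all genes were called at 1 h. At an unadjusted p under 0.05 there were 3 of the 6 members and 483 of the 19768 genes tested. DESeq2 called 0 members and 56 of the 12486 genes to which it gave an adjusted p. With 1 library in each condition at 1 h, the size of these differences has no replicate check of its own, and the error comes from the 4 h pair.

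**Figure D2:**
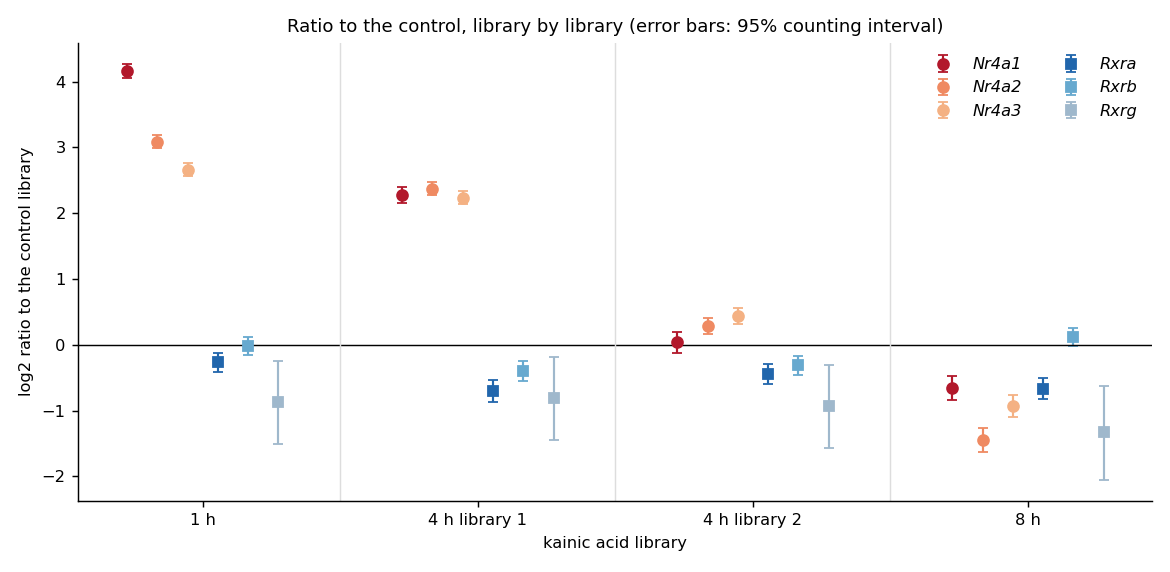
Log2 ratio of each kainic acid library to the control library (vertical axis) for the 6 genes, with 95% counting intervals. The NR4A genes (circles) stood at 4.16, 3.09 and 2.66 at 1 h and below 0 at 8 h, and the RXR genes (squares) stayed between -1.32 and 0.12 in all 4 libraries.

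At 4 h the answer depended on the library. In library 1 the 3 genes stood at nearly the same multiple of the control, 4.82-fold for Nr4a1 (4.43 to 5.26), 5.18-fold for Nr4a2 (4.83 to 5.55) and 4.72-fold for Nr4a3 (4.39 to 5.08). In library 2 the ratios were 1.02 for Nr4a1 (0.918 to 1.14), 1.22 for Nr4a2 (1.12 to 1.33) and 1.36 for Nr4a3 (1.25 to 1.48). The gap between the libraries was thus 4.71-fold for Nr4a1, 4.24-fold for Nr4a2 and 3.48-fold for Nr4a3. Only 0.334%, 0.470% and 0.946% of all genes tested had a larger ratio of library 1 to library 2, while the SD of this log2 ratio over all genes was 0.66. The same libraries held 26.4 and 4174 CPM of choroid plexus markers and 212 and 83.1 CPM of thalamus markers, whose part in the gap was not tested.

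Fitted over both 4 h libraries, the log2 fold changes were 1.54 (SE 0.88) for Nr4a1, 1.67 (SE 0.83) for Nr4a2 and 1.60 (SE 0.73) for Nr4a3. Without library 1 they were 0.04, 0.29 and 0.44, and without library 2 they were 2.27, 2.37 and 2.24. The adjusted p values of edgeR's quasi-likelihood test (Benjamini-Hochberg adjusted) were 0.536, 0.493 and 0.462. All 3 genes were at least 2-fold higher in the fit, as were 7.80% of all genes tested, but in library 2 alone 0 of the 3 reached this, against 5.33% of all genes, and in library 1 alone all 3 did, against 10.6% of all genes. None of the members was among the 2.19% of genes at least 2-fold lower. The test called 0 of the 6 members and 0.00506% of all genes, a single gene, ETV3L, which lies outside the rule for naming genes and was named after its values were seen. At an unadjusted p under 0.05 there were 1 of the 6 members, Rxra, and 2319 of the 19768 genes tested. DESeq2 called 0 members and 238 of the 14019 genes to which it gave an adjusted p.

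**Figure D3:**
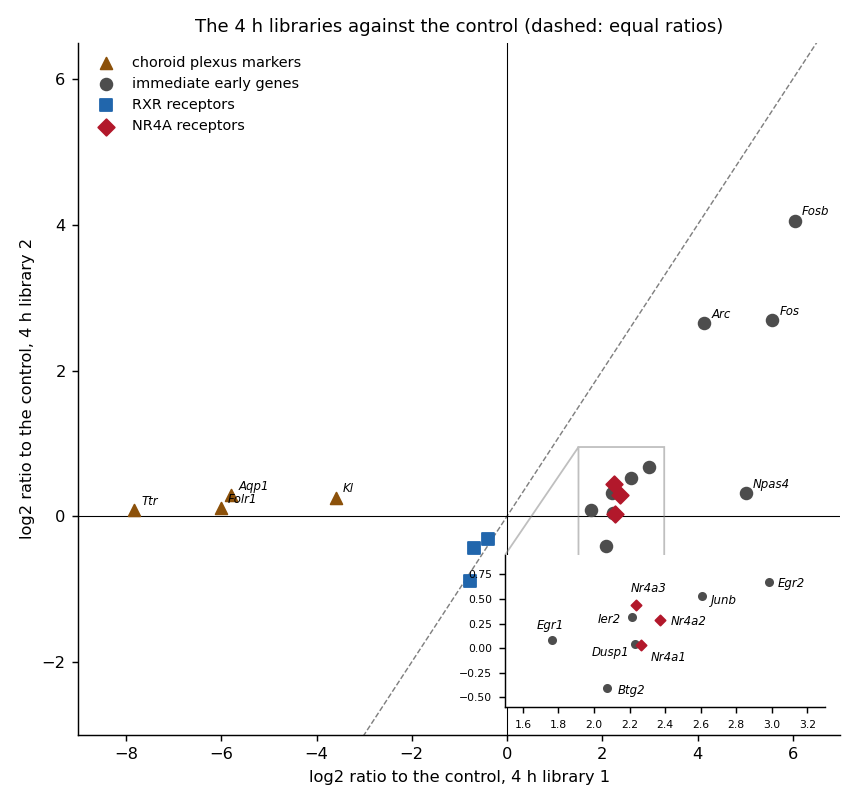
Log2 ratio to the control in library 1 (horizontal axis) and library 2 (vertical axis) of the 4 h pair for the NR4A, RXR, immediate early and choroid plexus marker genes, with the crowded region enlarged in the inset. The NR4A genes lie at 2.24 to 2.37 in library 1 and 0.03 to 0.44 in library 2, and Ttr lies at -7.83 in library 1 and 0.08 in library 2.

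At 8 h all 3 NR4A genes were lower than in the control. The ratio was 0.636 for Nr4a1 (0.559 to 0.723), 0.367 for Nr4a2 (0.323 to 0.417) and 0.524 for Nr4a3 (0.466 to 0.588), beyond counting error in each case. The fitted log2 fold changes were -0.65 (SE 0.96), -1.44 (SE 0.92) and -0.93 (SE 0.79), each with an adjusted p of 1.00 in edgeR's quasi-likelihood test (Benjamini-Hochberg adjusted). Nr4a2 had the lowest fold change of the 36 nuclear receptor genes tested, and 143 of all genes tested had a lower one. At least 2-fold lower were Nr4a2 and Rxrg, 2 of the 6 members, against 2.47% of all genes, and none was among the 5.24% at least 2-fold higher. The test called 0 of 6 members and 0% of genes. At an unadjusted p under 0.05 there were 1 of the 6 members, Rxra, and 909 of the 19768 genes tested. DESeq2 called 0 members and 33 of the 14019 genes to which it gave an adjusted p.

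The share of the 1 h level that was present later differed among the NR4A genes. For Nr4a1 it was 26.9% and 5.72% in the 4 h libraries 1 and 2 and 3.55% in the 8 h library. The same shares were 60.9%, 14.4% and 4.32% for Nr4a2, and 74.5%, 21.4% and 8.26% for Nr4a3. In each of these later libraries the order was Nr4a1, Nr4a2, Nr4a3 from the smallest to the largest share. The shares divide by the 1 h level, so they restate in part the unlike ratios at 1 h, and in library 1 at 4 h the ratios to the control were nearly equal. The intervals of Nr4a1 (3.20% to 3.94%) and Nr4a2 (3.85% to 4.83%) met at 8 h.

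Between 1 h and 4 h the fitted log2 differences were -2.61 (SE 0.78) for Nr4a1, -1.41 (SE 0.74) for Nr4a2 and -1.06 (SE 0.65) for Nr4a3, with adjusted p values of 0.532, 0.673 and 0.703 in edgeR's quasi-likelihood test (Benjamini-Hochberg adjusted). All 3 were at least 2-fold lower, as were 2.29% of all genes tested, while 5.62% were at least 2-fold higher, and only 15 genes had a lower fold change than Nr4a1. Against library 1 of the 4 h pair alone only Nr4a1 was at least 2-fold lower than at 1 h, as the shares of the 1 h level above show. Between 4 h and 8 h they were -2.19 (SE 0.92), -3.12 (SE 0.91) and -2.53 (SE 0.77), with adjusted p values of 0.579, 0.494 and 0.517 in the same edgeR quasi-likelihood test (Benjamini-Hochberg adjusted). Again all 3 were at least 2-fold lower, as were 5.16% of all genes, with 3.22% at least 2-fold higher. The ratio of the 8 h library to library 1 was 0.132 for Nr4a1, 0.0709 for Nr4a2 and 0.111 for Nr4a3, and to library 2 it was 0.621, 0.301 and 0.386, so that Nr4a1 was not 2-fold lower against library 2. In both of these comparisons the share of genes called was 0%, and the 1 h and 8 h levels were each set against a pair of 4 h libraries that themselves differed.

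Per kb of exon, the scale on which genes can be set against each other, the 3 NR4A genes summed to 29.7 CPM per kb in the control, 326 at 1 h, 147 and 35.5 in the 4 h libraries and 14.7 at 8 h. In the control Nr4a2 was the most abundant, with 41.4% of the sum, against 32.4% for Nr4a1 and 26.2% for Nr4a3. At 1 h Nr4a1 made up 52.9%, at 173 CPM per kb, a level above 99.4% of all genes tested, and Nr4a3 only 15.1%. In the 4 h libraries Nr4a2 was first, with 43.3% in library 1 and 42.3% in library 2. Nr4a1 and Nr4a3 followed with 31.7% and 25.0% in library 1, the order of the control, and with 27.8% and 29.8% in library 2, the opposite order. At 8 h Nr4a1 was again first, with 41.6%.

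The RXR genes encode the partners that Nr4a1 and Nr4a2 can use. Rxra (ENSMUSG00000015846.15, chr2:27676440-27762957, plus strand) had 870, 638, 453, 609 and 483 counts in the control, 1 h, both 4 h and 8 h libraries, or 43.7, 36.3, 26.9, 32.2 and 27.6 CPM. All 4 kainic acid libraries lay below the control, at ratios of 0.830 (0.749 to 0.921), 0.615 (0.548 to 0.690), 0.737 (0.663 to 0.818) and 0.630 (0.563 to 0.705). The fitted log2 fold changes were -0.27 (SE 0.25), -0.56 (SE 0.21) and -0.66 (SE 0.25) at 1, 4 and 8 h, with adjusted p values of 1, 0.414 and 1.00 in edgeR's quasi-likelihood test (Benjamini-Hochberg adjusted).

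Rxrb (ENSMUSG00000039656.17, chr17:34031812-34038399, plus strand), the more evenly expressed of the partners, had 891, 778, 570, 683 and 855 counts, or 44.8, 44.3, 33.9, 36.1 and 48.8 CPM. It was within counting error of the control at 1 h (ratio 0.989) and at 8 h (ratio 1.09), and below it in both 4 h libraries (0.756 and 0.807). The fitted log2 fold changes were -0.02 (SE 0.22), -0.35 (SE 0.19) and 0.12 (SE 0.22). Between 4 h and 8 h the log2 difference was 0.48 (SE 0.19), with an adjusted p of 0.559 in edgeR's quasi-likelihood test (Benjamini-Hochberg adjusted).

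Rxrg (ENSMUSG00000015843.10, chr1:167598384-167639623, plus strand), the receptor of striatal and muscle cells, had few reads, at 68, 33, 33, 34 and 24 counts, or 3.42, 1.88, 1.96, 1.80 and 1.37 CPM. The control was the highest and the 8 h library the lowest, at a ratio of 0.401 (0.241 to 0.647), and the 4 kainic acid libraries could not be told apart from each other at this depth. Markers of striatum, a tissue rich in Rxrg, summed to 58.7, 53.8, 61.8, 82.3 and 64.8 CPM, and their part in the Rxrg values was not tested. The fitted log2 fold changes at 1, 4 and 8 h were -0.83 (SE 0.51), -0.83 (SE 0.43) and -1.25 (SE 0.53).

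Summed per kb, the RXR genes stood at 20.8 CPM per kb in the control, 18.6 at 1 h, 14.3 and 15.8 in the 4 h libraries and 17.9 in the 8 h library, a far narrower range than that of the NR4A genes. The ratio of the NR4A sum to the RXR sum was therefore 1.43 in the control, 17.5 at 1 h, 10.3 and 2.25 in the 4 h libraries 1 and 2, and 0.821 in the 8 h library. Only in the 8 h library was RXR mRNA the more abundant of the families. Rxrb was the largest of the RXR genes in every library, with 54.3% of their sum in the control and 68.5% at 8 h, and Rxrg the smallest, with 7.17% and 3.33%.

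**Figure D4:**
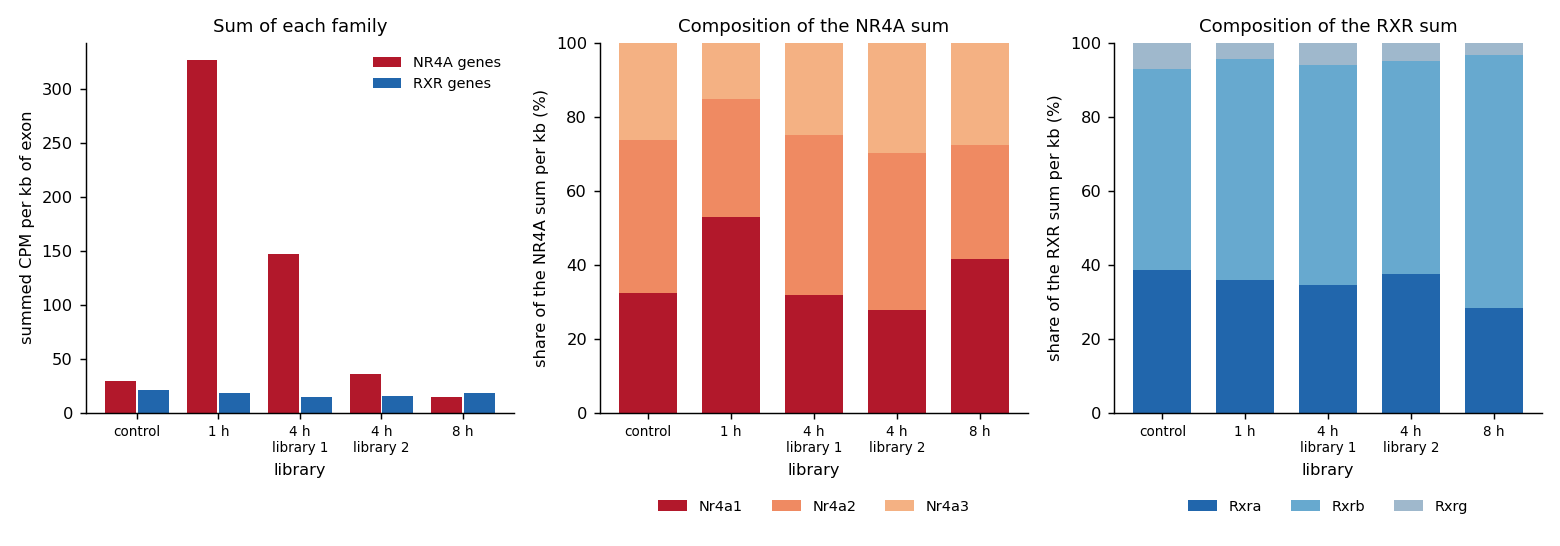
Left, summed CPM per kb of exon of the NR4A and of the RXR genes in each library. Middle and right, the share of each gene in its family's sum, where Nr4a1 stood at 32.4% in the control and 52.9% at 1 h, and Rxrb at 54.3% in the control and 68.5% at 8 h.

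Other receptors that pair with RXR compete for it, among them those for retinoic acid, thyroid hormone, fatty acids and oxysterols. Of 14 such genes, 10 passed the filter on low counts. At 1 h none of them was at least 2-fold higher or lower, near the 4.14% and 2.53% of all genes, with a median log2 fold change of 0.04 against -0.01 over all genes, and 0 were called at any time. Rara, which encodes a retinoic acid receptor, was the exception later on, at 9.24 CPM in the control, 11.5 at 1 h, 15.7 and 24.7 in the 4 h libraries and 32.5 at 8 h. All 4 kainic acid libraries were above the control, and unlike the NR4A genes Rara was highest at 8 h and higher in library 2 than in library 1 at 4 h. Its log2 fold change was 1.12 at 4 h and 1.80 at 8 h, the largest of the 36 nuclear receptor genes tested at 8 h. The medians of these partners were -0.29 at 4 h and -0.23 at 8 h, against 0.01 over all genes at both times.

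Among 29 further nuclear receptor genes, 20 passed the filter, and none was at least 2-fold higher at 1 h, against 4.14% of all genes. In this list 2 were at least 2-fold higher at 4 h, against 7.80%, and 3 at least 2-fold lower at 8 h, against 2.47%. Most of the 20 lay below the control, 17 at 4 h and 16 at 8 h. The median log2 fold changes were -0.32 and -0.33, against 0.01 over all genes at both times. The 3 NR4A genes held the top 3 places of the 36 nuclear receptor genes tested at 1 h, followed by Nr2e1, a factor of neural stem cells, at a log2 fold change of 0.75. At the other end stood Nr2f2, a factor of interneurons and vessels, at -1.01. At 4 h Nr6a1 and Rora had log2 fold changes of 1.03 and 1.00, which rested on library 1. Rora stood at 214 CPM there and at 93.0 in library 2, against 76.6 in the control, and this followed the thalamus markers, whose part was not tested. At 8 h the clock genes Nr1d1 and Nr1d2 stood lower than in the control, at log2 fold changes of -1.39 and -1.31. None of these genes was called.

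**Figure D5:**
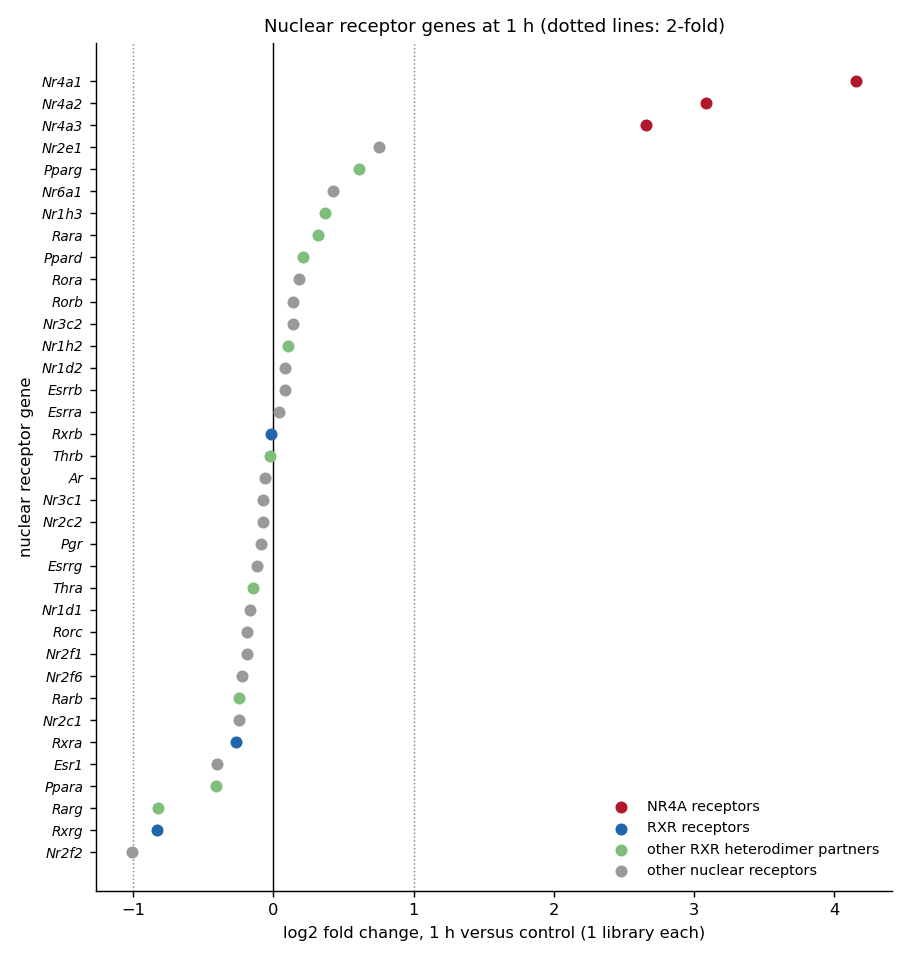
Fitted log2 fold change at 1 h against the control (horizontal axis) of the 36 nuclear receptor genes that passed the filter, ordered by size, with 1 library in each condition and dotted lines at 2-fold. The NR4A genes, at 4.16, 3.08 and 2.66, stand apart from the next gene, Nr2e1, at 0.75.

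RXR ligands depend on the supply and clearance of retinoids. Of 15 such genes 12 passed the filter, with 0 called and median log2 fold changes of -0.16, 0.30 and 0.20 at 1, 4 and 8 h. The gene that stood out by size was Aldh1a3, which makes retinoic acid, at 0.904 CPM in the control, 3.19 at 1 h, 11.4 and 2.43 in the 4 h libraries and 3.14 at 8 h. All 4 kainic acid libraries were above the control, and library 1 at 4 h was the highest. Its log2 fold changes were 1.70, 2.79 and 1.68, over 18 counts in the control. No other gene of the list was at least 2-fold higher in these fits, against 4.14%, 7.80% and 5.24% of all genes. Crabp2 was at least 2-fold lower at 4 h, at a log2 fold change of -1.11, against 2.19% of all genes.

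The mRNAs of activators known to switch on NR4A transcription were mostly near their control level, which leaves the activity of the proteins unmeasured. The list held CREB and its coactivators, the MEF2 factors, Srf and kinases of the same route. All 12 passed the filter, 0 were called, and the median log2 fold changes were -0.02, -0.08 and 0.01 at 1, 4 and 8 h. Srf, the factor of the CArG box and itself activity-induced, was the only activator at least 2-fold higher at 1 h, at 99.5 CPM against 38.8 in the control (log2 fold change 1.36), or 1 of 12 against 4.14% of all genes. At 4 h the largest differences were those of Rps6ka5, a kinase of chromatin and CREB, and of the CREB coactivator Crtc1, at log2 fold changes of -0.74 and -0.73.

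Coregulators of NR4A proteins, the corepressors and coactivators that decide what a bound receptor does, were all kept by the filter. Of these 15, none was at least 2-fold higher at 1, 4 or 8 h, against 4.14%, 7.80% and 5.24% of all genes, or lower, against 2.53%, 2.19% and 2.47%. With shares this small over all genes, a count of 0 of 15 sets the list apart in no way. None was called, and the median log2 fold changes were 0.06, 0.14 and 0.06. The largest at 4 h were Rcor1 and Kdm1a, which form the CoREST repressor complex used by Nr4a2, at 0.67 and 0.56. Rcor1 stood at 23.3 CPM in the control and 45.0 and 29.2 in the 4 h libraries.

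Of 14 genes reported as NR4A targets in other systems, 13 passed the filter and 0 were called. At least 2-fold higher were 2 at 1 h, 4 at 4 h and 3 at 8 h, with medians of 0.19, 0.31 and 0.24, against 4.14%, 7.80% and 5.24% of all genes. Bdnf, the neurotrophin, stood at 43.6 CPM in the control, 208 at 1 h, 754 and 316 in the 4 h libraries and 96.7 at 8 h. In contrast to the NR4A genes it was highest at 4 h, and both 4 h libraries were above the 1 h library. Fosl2, an AP-1 factor, stood at 53.8, 366, 385, 142 and 67.8 CPM, so that library 1 at 4 h was close to the 1 h library. Th, the first enzyme of dopamine synthesis and a target of Nr4a2 in the midbrain, had only 7, 13, 22, 24 and 20 counts, or between 0.352 and 1.31 CPM, lowest in the control. Ret, a receptor for glial neurotrophic factors, stood at 2.16 CPM in the control and 6.30 and 6.66 in the 4 h libraries.

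Genes with the NBRE letters near their start were described in the same way. Of the 147 genes tested with an NBRE in the 300-base promoter, 0 were at least 2-fold higher at 1 h, 6 at 4 h (4.08%) and 1 at 8 h (0.680%), and 4, 6 and 6 were at least 2-fold lower (2.72%, 4.08% and 4.08%). Of the 12398 genes tested with a promoter in the table, 2.47%, 6.07% and 3.32% were at least 2-fold higher and 1.83%, 2.18% and 2.5% lower at 1, 4 and 8 h. The median log2 fold changes of the NBRE genes were -0.07, -0.09 and -0.10. Of the 422 genes with a full CRE, 24 (5.69%), 34 (8.06%) and 9 (2.13%) were at least 2-fold higher at the same times, and 6, 2 and 8 were lower. These are descriptions of letters near the start and leave out sites elsewhere.

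The immediate early genes are the group with which the NR4A genes are usually counted. All 10 were at least 2-fold higher at 1 h, with a median log2 fold change of 4.90, and all 10 at 4 h in the fit, with a median of 2.08, while 0 were called. The shares of all genes at least 2-fold higher were 4.14% and 7.80%. In library 1 alone 10 of 10 were at least 2-fold higher at 4 h, against 3 of 10 in library 2, which were Fos, Fosb and Arc. Over all genes tested these shares were 10.6% in library 1 and 5.33% in library 2. Fos, Fosb and Arc had log2 ratios to the control of 2.69, 4.06 and 2.65 in library 2, where the NR4A genes lay between 0.03 and 0.44, and Arc was higher in library 1 at 4 h (4.13) than at 1 h (3.78). Npas4, a factor specific to neuronal activity, stood at 3.92 CPM in the control, 694 at 1 h, 130.01 and 4.92 in the 4 h libraries and 5.13 at 8 h. At 8 h 6 of the 10 were above the control and 4 below it, with a median log2 fold change of 0.03. Fosb and Fos, at 1.44 and 0.67, stood highest, and Egr2 and Egr1, at -0.95 and -0.61, lowest, on the same side of the control as the NR4A genes. Only Fosb was at least 2-fold higher at 8 h, at 9.75 CPM against 3.52 in the control, beside 5.24% of all genes.

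Genes with the nearest pattern to each NR4A gene were sought among 14298 genes by the root mean square difference in log2 ratio to the control over the 4 kainic acid libraries. Nearest to Nr4a1 were Junb (0.32), Dusp1 (0.37) and Ier2 (0.38), followed by Gm13889 (0.54) and Gm43585 (0.64). Nr4a2 and Nr4a3 were each other's nearest gene (0.35). Next to Nr4a2 were Dusp1 (0.49), Itprip (0.51), Egr1 (0.53) and Kcne4 (0.65), and next to Nr4a3 were Egr1 (0.35), Itprip (0.36), Spty2d1 (0.45) and Dusp1 (0.47). Nr4a1 lay further from its paralogs, at 0.68 from Nr4a2 and 0.79 from Nr4a3. With 4 libraries that share a control, this likeness is a description.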

How the data were processed

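The authors made stranded total RNA libraries, aligned paired-end reads with STAR 2.5.1b to GRCm38 (p4), per the submitters' processing notes, and deposited whole-number counts per gene in the layout of HTSeq. Neither the strand setting nor the annotation release is given in the sources used here. Lines that name no gene were left out of library sizes and tests. Reads that matched no counted feature made up 24.7% to 33.1% of all reads. With 16612225 to 19109204 gene reads per library, exact Poisson intervals (levels) and exact binomial intervals (ratios) of 95% were computed, which cover counting error only. Ratios of levels used counts divided by TMM-scaled library sizes.

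Genes were filtered with filterByExpr, which left 19768, normalized with TMM and tested with edgeR 4.0.16 in R 4.3.3 (glmQLFit, glmQLFTest) on all 5 libraries as 4 groups, with 1 residual degree of freedom and a biological coefficient of variation of 0.238. P-values were adjusted over all genes by Benjamini-Hochberg, with a threshold of 0.05, and log2 fold changes used a prior count of 2. The code was tested on simulated data. Exon lengths came from GENCODE M21 and promoters from RefSeq (GRCm38). Alternatives were other scalings, filters and prior counts, DESeq2 1.42.0, limma-voom (limma 3.58.1), the legacy quasi-likelihood pipeline and leaving out each 4 h library. Plots were made in Python 3.11.15 with matplotlib 3.10.9.

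Text names all 6 members, up to 4 genes per list and comparison with the largest absolute log2 fold change, and the 5 genes nearest in pattern to each NR4A gene. The minimum of 50 normalized counts in any library applied to these nearest genes alone. The members and lists were chosen with earlier results of these data known. A comparison of the protein sequences was planned and was not run, because no protein table was used here.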

Additional observations from a re-analysis of the deposited data

Results flagged for a closer look

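The 1 h and 8 h libraries lay on opposite sides of the control for 4 of the 6 members. The log2 ratio of the 8 h to the 1 h library was -4.82 for Nr4a1, -4.53 for Nr4a2 and -3.60 for Nr4a3, which were higher than the control at 1 h and lower at 8 h. For Rxrb it was 0.14, with both libraries within counting error of the control. Each time is a single library, and the difference between them was not tested.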

How the results depend on the processing

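The direction of each member against the control was the same under every alternative tried, and none of the 6 was called by any test under any of them. The number of genes called was less stable. At 1 h it was 0 and became 15 with library size alone, 56 with DESeq2 and 1 with at least 10 counts in every library. At 4 h it was 1 and became 76 with library size alone, 238 with DESeq2, and 0 with DESeq2 size factors in edgeR, with limma-voom, with no filter and with at least 10 counts in every library. At 8 h it was 0 and became 2 with library size alone and 33 with DESeq2. The cause of these shifts was not tested. Library size alone moved the median log2 fold change of all genes at 4 h to -0.11. Rxrg had no adjusted p in DESeq2. Leaving out either 4 h library leaves no residual degrees of freedom, so it gave log2 fold changes without a test, and no count of called genes. At 4 h these ran from 0.04 to 2.27 for Nr4a1, from 0.29 to 2.37 for Nr4a2 and from 0.44 to 2.24 for Nr4a3, with library 1 giving the high values. Counts of listed genes in each 4 h library alone were added after seeing the data: at least 2-fold higher were 3 NR4A and 10 immediate early genes in library 1, and 0 and 3 in library 2, against 10.6% and 5.33% of all genes. No paired analysis was possible because only the 4 h condition has more than 1 library. Depth limits Rxrg most, with 24 to 68 counts.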
